A study of Arabidopsis thaliana with 4 samples.

Results

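The small (40S) subunit of the cytosolic ribosome of Arabidopsis thaliana is described here through 60 genes for its proteins, followed in MM2d suspension-cultured cells over 4 days of a growth course. The members were chosen by locus code, and a member counted as readable where the array annotation gave it a probe set of its own. Of the 60 genes, 37 had such a probe set, among 13356 genes that did in the whole table of 22746 non-control probe sets. Of these 37, 35 gave a signal above the floor on every array, and the genes AT5G43640 and AT2G39590 lay below it on every array. The floor was the 40th percentile of all signals, 25.3. Another 8 members were read by probe sets shared with a near-identical copy, and 15 were not analysed here.

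MM2d is a cell line of Arabidopsis grown as a liquid suspension. In the growth course, 5 ml of an early stationary culture, 7 days old, went into 100 ml of fresh medium. The medium held 3% sucrose, an auxin (NAA, 0.5 mg/l) and a cytokinin (kinetin, 0.05 mg/l). The flasks were kept in the dark at 27 °C, turning at 130 rpm. The 4 groups shared this line and medium and differed by label in age alone, being 1, 3, 5 and 7 days from subculture. Each day was 1 sample on 1 ATH1 array with no replicate, so no difference below has a test or a replicate error, and each is a difference between single arrays. An array shows RNA per amount of RNA labelled, so fewer cells that express a gene and less of its RNA per cell cannot be told apart. Every array had been scaled to the same trimmed mean signal of 100.0, and a change in total RNA per cell leaves no mark in the values.

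The 40S subunit reads the messenger RNA: its head and body close around the strand, the decoding site between them checks each codon against a transfer RNA, and a platform at the back leads the strand out. It is built from the 18S ribosomal RNA and a set of proteins named by S-numbers, each present as a single copy. In plants nearly every one of these proteins is encoded by several paralogous genes, whose products are often almost identical. The making of ribosomes takes up much of the transcription of a growing cell, and ribosomal protein messages are among the most abundant a cell holds. The protein that each locus encodes was taken from general knowledge of the Arabidopsis gene families. RefSeq's names mention a ribosomal protein for 13 of the 60 members, none of them among the 35 measured. Levels of different probe sets cannot be set against each other, so paralogs are compared by their ratios between days.

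Over the whole course every one of the 35 measured genes was lower on day 7 than on day 1 (34 with arrays scaled to the hybridisation controls, where AT5G20290 was not), and 32 of them were at least 2-fold lower. Among all 15292 probe sets above the floor on at least 1 array, 42.2% were lower and 10.5% at least 2-fold lower in this comparison. Their median log2 ratio was 0.06, against a median of -1.50 for the 40S genes (quartiles -1.74 and -1.29). A median 40S gene thus kept 35.4% of its day 1 signal on day 7, and the range ran between 15.6% and 84.1%. Bright probe sets as a class were also lower. Of the 562 probe sets with a mean signal of at least 771, the lower quartile of the 40S genes, 74.2% were lower. At least 2-fold lower were 32.9% of them, and their median log2 ratio was -0.58. Of these 562, 77 were probe sets of single cytosolic ribosomal protein genes, 26 of them 40S members.

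**Figure D1:**
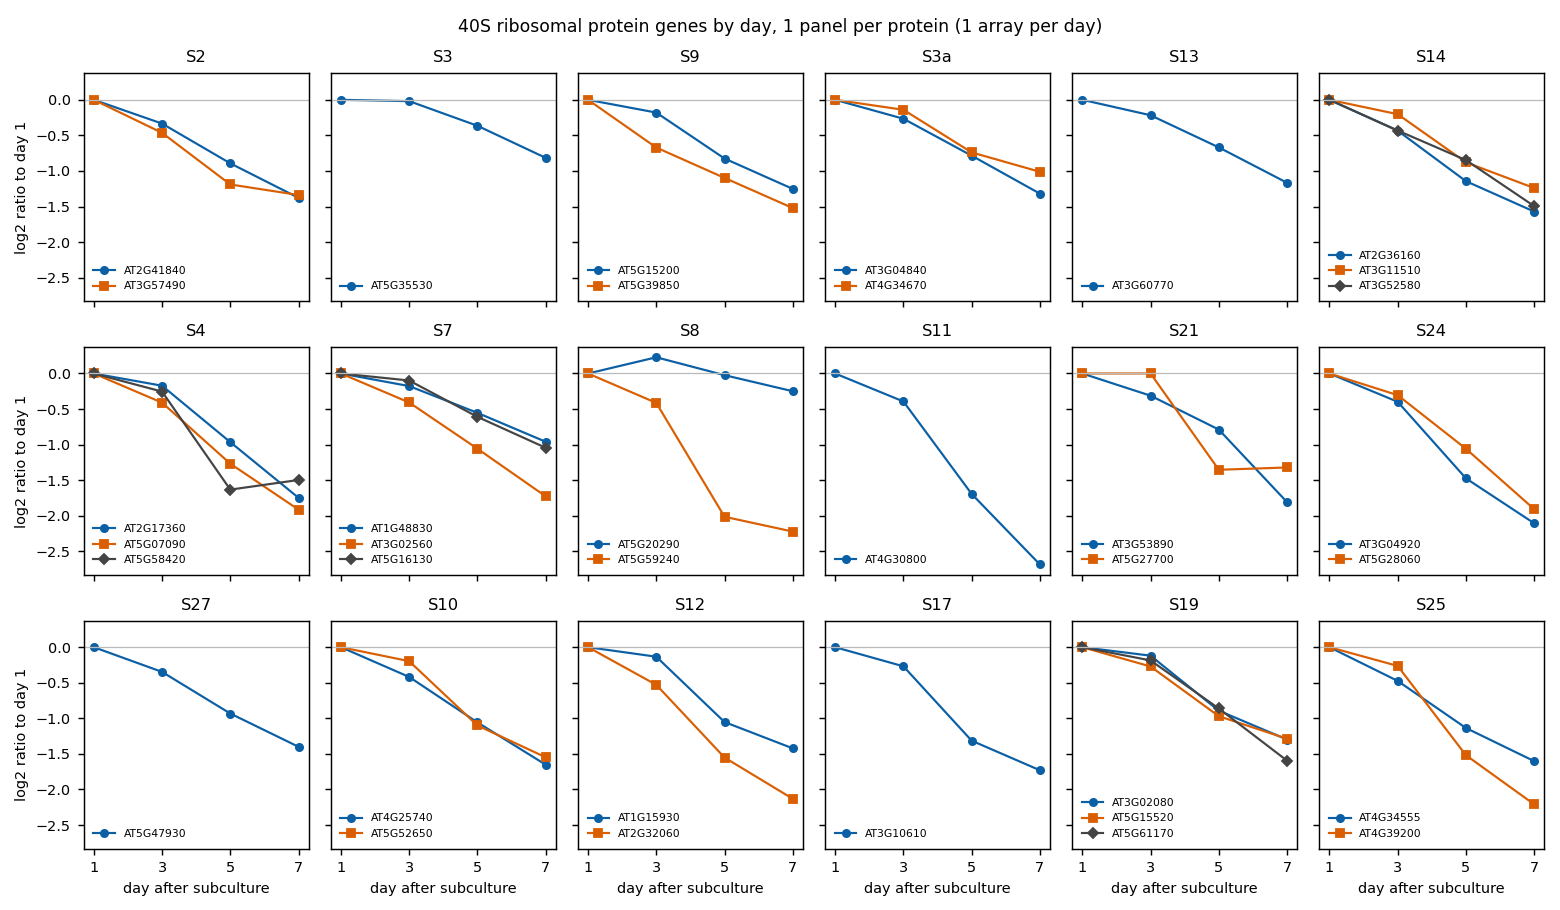
Log2 ratio of signal to day 1 (vertical axis, no unit) by day after subculture (horizontal axis) for the 35 measured 40S genes, 1 panel per protein and 1 line per gene, with 1 array per day. In 32 of the 35 genes each day lay below the one before, and the S8 panel holds the widest gap between paralogs.

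The decline was spread over the course in unequal parts. In 32 of the 35 genes the signal was lower at every step, and the 3 others were AT5G27700, AT5G58420 and AT5G20290. Other scalings of the arrays put this number between 27 and 33. The step between days 3 and 5 held the largest drop for 25 genes, the step between days 5 and 7 for 9, and the step between days 1 and 3 for 1. Under other scalings the first of these counts lay between 20 and 32 and the second between 1 and 14. The signal was highest on day 1 in 33 genes and on day 3 in AT5G20290 and AT5G27700. It was lowest on day 7 in 33 genes and on day 5 in AT5G27700 and AT5G58420. These counts were made for the 35 genes alone, so whether they are particular to these genes was not tested. In the steps to days 3, 5 and 7, 68.3%, 71.2% and 69.2% of the bright probe sets were lower. Of all measured probe sets 42.2%, 48.4% and 48.1% were lower in these steps.

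On day 3 against day 1 the median log2 ratio of the 35 genes was -0.27, with 33 below 0 and a range between -0.67 and 0.23. It was -0.46 with a common median and -0.15 with quantile normalization, where 28 genes lay below 0, and -0.41 among the 17 genes never above a signal of 2000. None was at least 2-fold lower, where 1.65% of all measured and 1.07% of the bright probe sets were. On day 5 against day 3 the median was -0.68 and all 35 lay below 0, with a range between -1.60 and -0.25. Of all measured probe sets 48.4% lay below 0, and of the bright ones 71.2%. In this step 8 genes were at least 2-fold lower, against 3.81% of all measured and 6.94% of the bright probe sets. They were AT5G59240 (S8), AT5G58420 (S4), AT5G27700 (S21), AT4G30800 (S11), AT4G39200 (S25), AT3G04920 (S24), AT3G10610 (S17) and AT2G32060 (S12). On day 7 against day 5 the median was -0.45 with 33 of the 35 below 0 (28 with the hybridisation controls). Here 48.1% of all measured and 69.2% of the bright probe sets lay below 0. AT3G53890 (S21) was the 1 gene at least 2-fold lower, where 2.71% of all measured and 1.6% of the bright probe sets were. With arrays scaled to the hybridisation controls the median was -0.094 and no gene passed, and with a common median or quantile normalization 2 genes did. AT4G30800 lay just inside that limit at 1.99-fold.

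**Figure D2:**
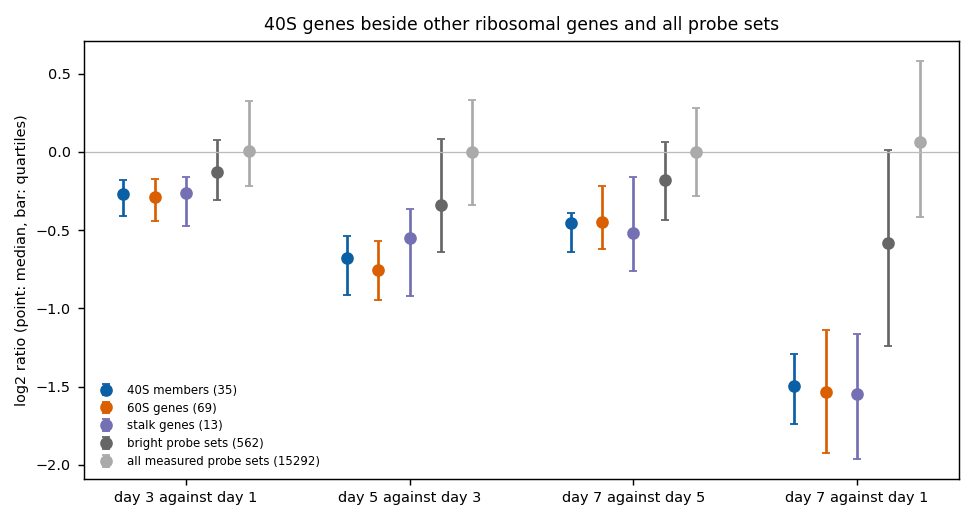
Median log2 ratio (points, no unit) with quartiles (bars) in 4 comparisons between days, for the 35 measured 40S genes, 69 genes of the 60S subunit, 13 stalk genes, the 562 bright probe sets and all 15292 measured probe sets. The 3 ribosomal groups lie close together and below both wider groups in every comparison.

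At the mRNA entry side of the subunit sit S2, S3 and S9, counterparts of the bacterial proteins that surround the incoming strand. The S3 gene AT5G35530, whose protein sits in the head, was among the least lowered members. Its signals were 2892, 2855, 2246 and 1643 on days 1, 3, 5 and 7, so that day 7 was 1.76-fold below day 1. Days 1 and 3 were nearly level, and the decline came in the last 2 steps. A probe set shared by the other two S3 genes, AT2G31610 and AT3G53870, read 2679, 2601, 1586 and 1118, a log2 ratio of -1.26 between days 7 and 1 against -0.82 for AT5G35530.

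The 2 measured S2 genes ended almost level with each other. AT3G57490 had signals of 740, 537, 324 and 293, 2.53-fold lower on day 7 than on day 1. AT2G41840 had 3108, 2466, 1674 and 1196, 2.60-fold lower. Most of the decline of AT3G57490 was over by day 5, with a log2 ratio of -0.15 in the last step, while AT2G41840 continued down at -0.49. The probe set shared by 4 further loci, AT1G58380 and AT1G59359 of the S2 family among them, had a log2 ratio of -1.31 between days 7 and 1.

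The S9 genes differed most in the first step. AT5G39850 read 1462, 918, 683 and 509 on the 4 days. Its log2 ratio of -0.67 between days 3 and 1 was the most negative of the 35 genes in that step, and it was the 1 gene with its largest drop there. AT5G15200 had a ratio of -0.18 in the same step. Between days 5 and 3 the order was turned, with -0.43 for AT5G39850 and -0.65 for AT5G15200. Between days 7 and 5 their ratios were -0.42 and -0.43, and over the whole course they were 0.27 apart.

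S3a and S14 line the platform where the strand leaves, and S13 lies in the body near the face that meets the large subunit. The S3a gene AT4G34670 had signals of 2265, 2055, 1357 and 1123, and at 2.02-fold lower on day 7 it lay just past the 2-fold limit. Its paralog AT3G04840 was 2.50-fold lower. The S13 gene AT3G60770 read 2747, 2363, 1728 and 1224, 2.24-fold lower on day 7 than on day 1, in steps of growing size.

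The 3 S14 genes had log2 ratios between days 7 and 1 of -1.57 (AT2G36160), -1.49 (AT3G52580) and -1.24 (AT3G11510). AT2G36160 was the lower of the pair with AT3G11510 at all 3 steps. The order of the other S14 pairs turned between steps.

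The body proteins S4, S7, S8, S11, S21, S24 and S27 held both ends of the range. Of these, S8 binds the 18S RNA early in assembly in yeast and is encoded by 2 genes, AT5G20290 and AT5G59240. AT5G20290 had signals of 2919, 3418.5, 2872 and 2456 on the 4 days. It was highest on day 3 and 1.19-fold lower on day 7 than on day 1, the smallest decline of the 35 genes and 1 whose sign turned with the scaling. AT5G59240 had signals of 630, 473, 156 and 135. Its day 7 value was 4.66-fold below day 1, and its drop of 3.03-fold between days 3 and 5 was the largest of the 35 genes in any single step.

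The log2 ratios of the 2 S8 genes between days 7 and 1 were 1.97 apart, a 3.92-fold difference in decline. In the comparison of day 7 with day 3, which does not use the day 1 array, they were 1.33 apart. The gap opened in the first 2 steps, by 0.64 and 1.35, and in the last step the ratios were -0.23 for AT5G20290 and -0.21 for AT5G59240. AT5G20290 was the brightest of the 35 probe sets and AT5G59240 the second dimmest. The highest signal on any array was 4032, and whether the scanner's upper range compressed the brightest genes was not tested.

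S11 contacts the 18S RNA within the body, and its measured gene AT4G30800 had the deepest decline of the 35 genes. The signals were 512, 390, 158 and 79.6 on the 4 days, which put day 7 at 6.43-fold below day 1. It was low in each of the last 2 steps, with log2 ratios of -1.30 and -0.99. The other 2 S11 members were not analysed here, so no paralog can be set beside it.

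S21 is a small body protein, and its 2 genes reached day 7 by different routes. AT5G27700 had signals of 2331, 2332, 912.5 and 933, with its whole decline between days 3 and 5. AT3G53890 had signals of 2693, 2169, 1559 and 769, with its largest drop, 2.03-fold, between days 5 and 7. On day 7 against day 5 their log2 ratios were 1.05 apart, 0.03 for AT5G27700 and -1.02 for AT3G53890. On day 5 against day 3 they were 0.88 apart, with AT5G27700 the lower. On day 3 against day 1 they were 0.31 apart, with AT3G53890 the lower. Over the whole course the gap was 0.49.

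A like course was seen in 1 of the 3 genes for S4, a protein of the body specific to eukaryotes and archaea. AT5G58420 read 1688, 1415, 544 and 598, a 2.60-fold drop between days 3 and 5 and no further drop. AT5G07090 had 1240, 933, 515 and 329, and was 3.77-fold lower on day 7 than on day 1. The third gene, AT2G17360, was 3.36-fold lower. In the last step AT5G58420 had a log2 ratio of 0.14, AT5G07090 one of -0.65 and AT2G17360 one of -0.78.

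The 3 genes for S7, a protein linked in human cells to ribosome assembly, split into a pair and a single gene. AT1G48830 read 2431, 2151, 1657 and 1250, 1.94-fold lower on day 7 and just inside the 2-fold limit. AT5G16130 read 2372, 2215, 1555 and 1151, 2.06-fold lower. These 2 genes had nearly the same course, and their log2 ratios between days 7 and 1 were 0.08 apart. AT3G02560 was 3.31-fold lower, 0.77 from AT1G48830 on the log2 scale, and was the lower one at all 3 steps against both.

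S24, a body protein whose human gene is mutated in some patients with Diamond-Blackfan anaemia, had 2 steep genes. AT3G04920 had signals of 1538, 1167, 554 and 357, and AT5G28060 of 1357, 1099, 652 and 362. They were 4.30-fold and 3.75-fold lower on day 7 than on day 1. The single measured S27 gene, AT5G47930, was 2.64-fold lower.

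In the head of the subunit are S10, S12, S17, S19 and S25. The S12 genes kept their order throughout. AT2G32060 read 1662, 1152, 567 and 379, 4.38-fold lower on day 7 than on day 1, and AT1G15930 was 2.68-fold lower. Their log2 ratios were 0.71 apart over the course, with AT2G32060 the lower at each of the 3 steps.

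S25 is needed in yeast and human cells for translation from certain viral internal entry sites. AT4G39200 had signals of 2697, 2247, 942 and 584, and was 4.62-fold lower on day 7 than on day 1. AT4G34555 had signals of 564, 406, 257 and 186, and was 3.03-fold lower. Here the brighter probe set had the steeper decline, and the gap of 0.61 over the course came mainly from the step between days 3 and 5, where it was 0.59.

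The remaining measured head genes stayed close to the common course, while a probe set shared by other S17 genes did not. The 3 S19 genes had log2 ratios between days 7 and 1 of -1.59 (AT5G61170), -1.30 (AT3G02080) and -1.29 (AT5G15520), and the 2 S10 genes had -1.65 (AT4G25740) and -1.55 (AT5G52650). The S17 gene AT3G10610 was 3.32-fold lower on day 7 than on day 1. A probe set shared by the other three S17 genes, among them AT5G04800, read 2875, 3588, 1911 and 2538, with a log2 ratio of -0.18. The single gene and the shared probe set were 1.55 apart over the course and 0.96 apart without the day 1 array.

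The 11 measured genes of 6 head proteins, S3 counted among them, had a median log2 ratio of -1.59 between days 7 and 1, and the 24 genes of 12 body and platform proteins one of -1.45. The ranges overlapped, running between -2.21 and -0.82 in the head and between -2.68 and -0.25 in the body. This division follows the yeast subunit and was made after the values had been seen.

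**Figure D3:**
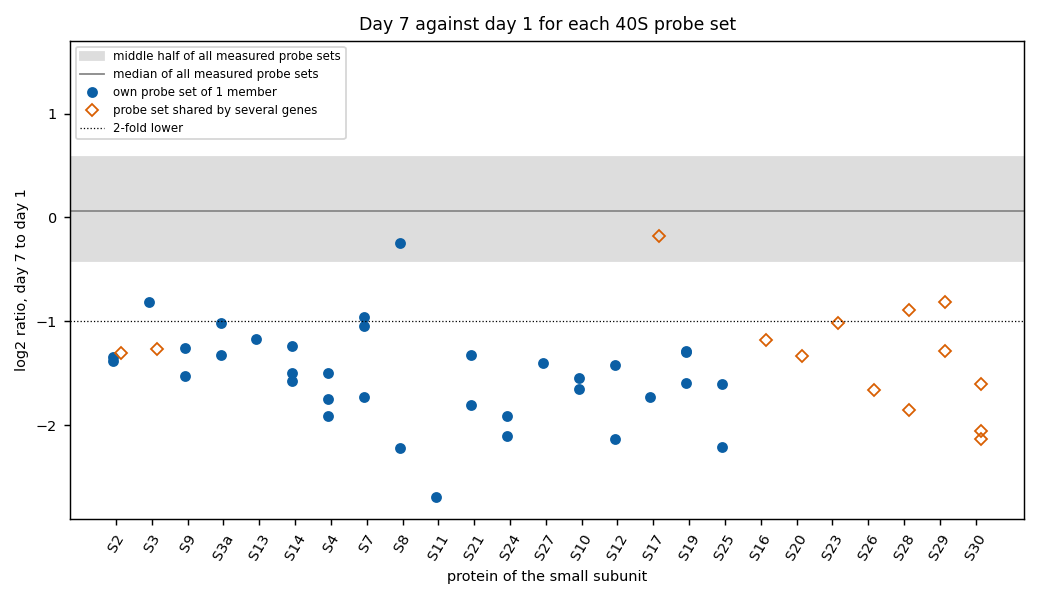
Log2 ratio of day 7 to day 1 (vertical axis, no unit) for each measured 40S probe set, by protein (horizontal axis), with probe sets of 1 member as filled circles and probe sets shared by several genes as open diamonds. The grey band lies between the quartiles of all 15292 measured probe sets, and of the members only AT5G20290 of S8 lies in it, with the shared S17 probe set.

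The members at or below the floor belong to families with other copies. AT5G43640 (S15, a head protein next to the decoding site) had signals of 19.5, 21.3, 20.8 and 13.8. AT2G39590 (S15a) had 14.9, 11.2, 11.7 and 13.95. All 8 values lay below the floor of 25.3, where a signal has no order, so no ratio is given for these genes. In the S15 family outside the members, AT5G09510 read 576, 526, 301 and 216, within the common course, and was picked after its values were seen.

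Probe sets shared by several genes could not be given to a member, but they show families that the single-gene rule leaves thin. Of 14 such probe sets above the floor, 11 were at least 2-fold lower on day 7 than on day 1 (median log2 ratio -1.29). The 2 S16 members AT2G09990 and AT5G18380, read together, had signals of 3078, 2932, 1874 and 1359. The 2 S23 members AT3G09680 and AT5G02960 had 3084, 3054, 1930 and 1522, and the S20 member AT5G62300 with AT3G45030 had 3035, 2391, 1776 and 1203. All 3 were lower on each day than on the one before, with log2 ratios between days 7 and 1 of -1.18, -1.02 and -1.33. The S20 probe set had its largest drop between days 5 and 7.

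On day 7 against day 1 the spread between paralogous members read by their own probe sets was small beside the common decline, with the S8 pair apart. Among the 13 proteins with at least 2 measured genes there are 21 pairs of paralogs. In 9 of the 13 families the log2 ratios of day 7 to day 1 lay within 0.5 of each other, and the 4 wider ones were S8, S7, S12 and S25. Of the 21 pairs 1 was at least 1 apart on the log2 scale (4.76%), against 70 of 574 pairs of 40S genes from different proteins (12.2%). The same count of 1 pair was found on day 7 against day 3 (S8), day 5 against day 3 (S8) and day 7 against day 5 (S21), where 6.27%, 3.14% and 0.523% of the other pairs were as far apart. The median difference on day 7 against day 1 was 0.30 in paralog pairs and 0.41 in the others. Paralogs were not closer in every step. On day 3 against day 1 the median differences were 0.21 in paralog pairs and 0.16 in the others. On day 7 against day 5 they were 0.225 and 0.219. The median log2 ratios of the 35 measured genes in these steps were -0.27 and -0.45, so the spread was not small beside the decline there. Without S8 the 20 pairs lay between 0.01 and 0.77 apart on day 7 against day 1. The pairs share genes and arrays, so these shares are descriptions. The pairs leave out genes without a probe set of their own and genes outside the members. The S17 gene AT3G10610 lay 1.55 from the probe set shared by its paralogs. The S2 genes lay 0.07 and 0.03 from theirs, and the S3 gene 0.44. In S25, outside the members, AT2G16360 had a log2 ratio of 0.38 and AT2G21580 one of -2.12, beside -2.21 and -1.60 for the members. In S27 AT2G45710 had -1.27 against -1.40. Cross-hybridisation between paralogs was not tested.

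The spread between probe sets of the same genes gives a scale for these gaps. It holds measurement error and any difference in what the probe sets read, which were not told apart. On this array 96 genes had 2 measured probe sets, whose ratios would be equal if both read the same RNA without error. Their median difference was 0.55 between days 7 and 1 and 0.27 between days 7 and 3. None of the 96 was as bright as most 40S genes. At least 1 apart between days 7 and 1 were 19.8% of them, and 25.9% of the 27 with both mean signals at least 100. Nearer in brightness were 7 pairs of probe sets listed with identical groups of ribosomal genes, a set picked after the data had been seen. These were between 0.08 and 1.58 apart over the course, with a median of 0.47. The 2 probe sets of S28 were 0.97 apart, with log2 ratios of -0.89 and -1.86. The gaps of 0.77 (S7), 0.71 (S12) and 0.61 (S25) thus lie within the range seen between probe sets of the same genes, and the S8 gap of 1.97 lies above all 7 of these pairs, as does its gap of 1.33 between days 7 and 3. Of the 96 genes 5 were at least as far apart as the S8 genes, and of the brighter 27 genes 3 were, with a widest gap of 3.12. AT5G59240, at signals between 135 and 630, was among the dimmest of the 35 probe sets.

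**Figure D4:**
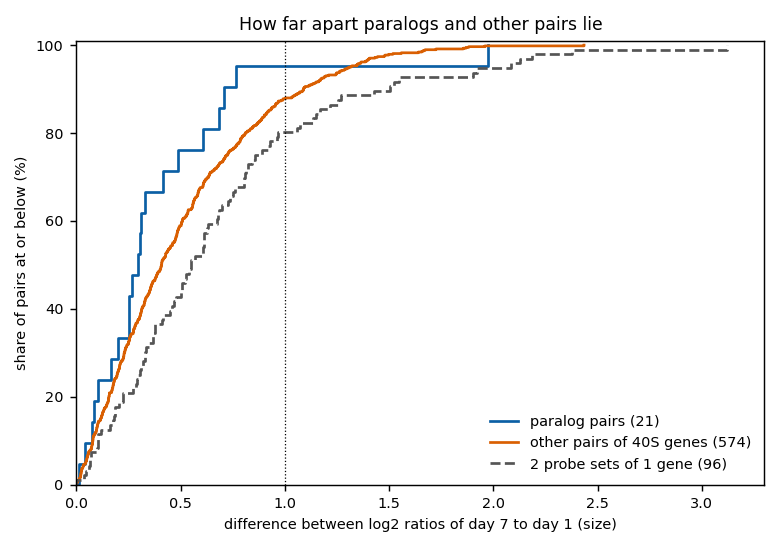
Share of pairs (vertical axis, %) whose log2 ratios of day 7 to day 1 differ by no more than the value on the horizontal axis (no unit), for 21 paralog pairs, 574 other pairs of 40S genes and 96 genes with 2 probe sets. The paralog curve lies to the left of the others at most values, and the last paralog step at 1.97 is the S8 pair.

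Brightness, taken as the mean log2 signal over the 4 arrays, moved with the size of the decline across genes. Over the 35 genes its Spearman rho with the log2 ratio of day 7 to day 1 was 0.68, and Pearson r was 0.67. Genes with a lower mean thus tended to have lower ratios. In the single steps rho was 0.67 between days 3 and 1, 0.60 between days 5 and 3 and 0.05 between days 7 and 5. The mean holds the later days too, so a deeper decline from the same day 1 signal lowers it. Part of the tie is therefore built in, and how much was not tested. Signal on day 1 alone was not set against the ratios. All points share the same 4 arrays, and genes are not independent replicates. Within families the paralog with the lower mean had the lower ratio in 11 of 21 pairs. This count and rho are unlike measures, and no correlation within families was taken. The part of brightness in the results was not tested.

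**Figure D5:**
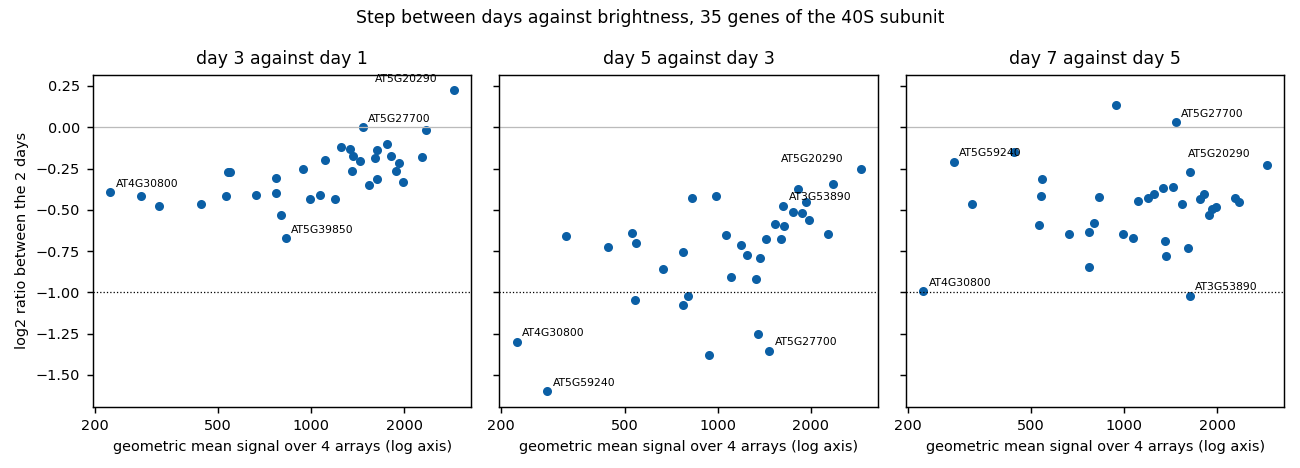
Log2 ratio of each step between days (vertical axes, no unit) against the geometric mean signal over the 4 arrays (horizontal axes, log scale) for the 35 measured 40S genes. The points rise to the right in the first 2 panels and are level in the last, where AT3G53890 and AT4G30800 lie lowest.

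Beside the large subunit, the 40S genes followed nearly the same course. Of 69 measured genes in a list of cytosolic 60S proteins, 58 were at least 2-fold lower on day 7 than on day 1 (median log2 ratio -1.54), and of 13 stalk genes 11 were, with a median of -1.55. Of 9 measured 40S genes outside the members 7 were at least 2-fold lower (median -1.51). The other two were AT2G16360 (S25), which read 67.1, 177, 89.3 and 87.5 on the 4 days, and AT5G09500 (S15), which read 40.2 on day 7 and lay below the floor on day 1. Both were named after their values were seen.

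For the 16 measured members outside the rule for named genes, AT2G41840 among them, the signals ran between 844 and 3368 on day 1, between 681 and 2974 on day 3, between 384 and 1901 on day 5 and between 288 and 1414 on day 7. Their log2 ratios of day 7 to day 1 lay between -1.75 and -1.24. The 15 members not analysed here are AT1G72370 and AT3G04770 of Sa, AT2G37270 and AT3G11940 of S5, AT4G31700 and AT5G10360 of S6, AT5G41520 of S10, AT3G48930 and AT5G23740 of S11, AT4G00100 of S13, AT1G04270 of S15, AT2G19720, AT4G29430 and AT5G59850 of S15a, and AT3G61110 of S27.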

How the data were processed

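Total RNA of 4 samples was labelled with biotin and hybridised to ATH1 arrays. The authors deposited linear intensity values, 1 per probe set and array. The submitters' processing notes name MAS5. MAS5 scales each array by a constant, and its version and settings are not given in the sources used here. The table gives no detection calls. The files hold no read depth, and the number of arrays, 1 per day, limits the precision.

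Gene names came from the annotation of the array platform, matched to RefSeq's gene table (TAIR10.1) by gene number. All 60 members matched. Signals under the 40th percentile were raised to it as a floor, and log2 ratios were taken between days without further scaling. Each measured member had 1 probe set. Counts use a 2-fold limit. No statistical test was possible. Analyses used Python 3.11.15, pandas 2.3.3 and numpy 2.4.6, and the counting step was tested on simulated data.

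Named genes are the 6 lowest and 6 highest ratios of day 7 to day 1, the 3 lowest and 3 highest of each step, families at least 1 apart and families with a member below the floor. Other members are named to account for the family. Members and lists were chosen with earlier results of these data known. Alternatives cover the floor, the scaling of arrays, probe set suffixes and the limits. The comparison of days 7 and 3 and a brightness limit were added after seeing the data.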

Additional observations from a re-analysis of the deposited data

How the results depend on the processing

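No paired analysis was possible because each day has 1 array. All measured members had probe sets without a cross-hybridisation suffix, so leaving out probe sets with one could change nothing. Whether these probe sets also read near-identical paralogs was not tested. The floor settings moved no count or median of the members. With arrays scaled to the hybridisation controls the median log2 ratio of the 40S genes on day 7 against day 5 was -0.094, with 0 genes at least 2-fold lower, while the median of all measured probe sets moved to 0.32 in that step and to 0.33 on day 7 against day 1. A common median moved all measured probe sets on day 7 against day 1 to -0.12, with 35 of 35 genes still lower. With a common median or quantile normalization 2 genes passed the 2-fold limit downward on day 7 against day 5, and quantile normalization put 2 paralog pairs at least 1 apart there. Counted at 1.5-fold, the genes lower were 1 on day 3 against day 1, 24 on day 5 against day 3 and 11 on day 7 against day 5. A 3-fold limit gave 1 on day 5 against day 3, 0 on day 7 against day 5 and 14 on day 7 against day 1. Under a gap limit of 1.5-fold, 1 paralog pair was apart on day 3 against day 1, 4 on day 5 against day 3, 3 on day 7 against day 5 and 5 on day 7 against day 1. Without genes above a signal of 2000 on any array, 17 genes remained in the set, 17 of them at least 2-fold lower on day 7 against day 1 and 0 on day 7 against day 5. In that set 0 paralog pairs were at least 1 apart on day 5 against day 3, day 7 against day 5 or day 7 against day 1, since AT5G20290 and both S21 genes were left out. No value of at least 2-fold changed sign under any of these settings. The single array per day limits everything above, since a difference between cultures or labellings cannot be seen.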
